A study of Arabidopsis thaliana with 3 samples.

Results

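The transcription factor genes described here are those whose symbols carry a number after MYB, bHLH, HDG, HB or ATHB, together with GIS, TRY, MYC1 and SIM from the trichome network. They were found through a table that pairs array features with genes and through RefSeq gene symbols, and MYC1, listed there as ATMYC1, was found through its synonym. The rule gave 10 genes on 11 features, out of 16918 genes and 28785 features in the series. Of 13 RefSeq genes with a bHLH number, 6 were paired with a feature. Of the 120 genes with a MYB number and the 51 homeobox genes of the rule, 0 were paired with a feature in the tables used here, and they were not analysed. The set therefore holds 7 bHLH genes (6 by number and MYC1), the single-repeat MYB gene TRY, the zinc finger gene GIS and the cell cycle inhibitor gene SIM, and no homeobox gene.

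Total RNA of Arabidopsis thaliana rosette leaves was measured on 3 one-colour arrays, with plants of the Columbia ecotype Col-0 harvested at the age of 2 weeks in each case. Wild type had 1 array, and plants expressing AtMYB23SRDX from the 35S promoter had 2 arrays, labelled 41 and 45 and called line 41 and line 45 here. AtMYB23SRDX is the trichome factor MYB23 with the SRDX repression domain attached, which turns an activator into a repressor of the genes it binds. The 35S promoter is active in most plant tissues, so the protein is not restricted to the cells in which MYB23 is normally made. The labels do not say whether plants were pooled. As wild type had 1 array, p-values rest only on the spread between the 2 line arrays, that of all features as well as the gene's own. The lone wild-type array is assumed to vary like the line arrays.

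In the leaf epidermis, a MYB protein such as MYB23 or its close relative GL1 joins a bHLH protein and the WD40 protein TTG1, and this complex switches on genes that make a cell a trichome. Single-repeat MYB proteins such as TRY move into neighbouring cells and compete for the bHLH partner, which holds those cells back from trichome fate. MYC1 is a bHLH protein of the partner type, GIS acts upstream of the complex in response to gibberellin, and SIM acts in the young trichome, where it stops division so that the nucleus endoreduplicates. Most of the numbered bHLH genes measured here belong to another system, the response to iron shortage. There the related proteins bHLH34, bHLH104, bHLH115 and ILR3 (bHLH105) pair with bHLH121 and activate genes such as BHLH101, whose product promotes iron uptake.

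Column medians were 5.89 to 5.96 on the log2 scale, and the 99th percentile was 9.62 in wild type against 10.63 for line 41 and 10.54 for line 45. Of 12 leaf mesophyll markers, 3 were paired with a feature (RCA, LHCB4.1 and LHCB4.2). They were bright on every array, between 9.53 and 14.13, and higher in the lines. The summed linear signal of the leaf markers was 6880 in wild type against 38400 for line 41 and 28200 for line 45. For root markers (3 of 13 paired) it was 150, 171 and 180, for flower and pollen markers (2 of 13) 127, 80.6 and 153, and for guard cell markers (3 of 7) 562, 486 and 520, in the same order. The guard cell markers were SPCH, MUTE and FAMA, the same genes that are described below as epidermis genes. Within the root list PYK10 rose (log2 change 0.88 ± 0.20, adjusted p = 0.0191 by limma), while EXPA7 and EXPA18, under the dim filter in the lines and not tested, lay below wild type in both lines, by 0.41 and 0.25 and by 0.52 and 0.32. No seed marker of 10 was paired with a feature. The 1 trichome marker of 11 was TBR, with a linear signal of 199 in wild type against 155 for line 41 and 139 for line 45. The part of these differences in the results below was not tested. MYB23 itself was not paired with a feature, so its transcript could not serve as a check of the labels.

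None of the tested genes of this set passed the test for a difference between the lines and wild type. With so few genes, that result says little about the set. Of the 10 genes, 7 had a mean signal above the dim filter (a log2 level of 5.64) and were tested, and 0 of the 7 were called by limma at an adjusted p under 0.05, where 21.9% of all 16905 features tested were called, 14.6% higher and 7.27% lower (after quantile normalization 2602 features were called higher and 2660 lower). At an unadjusted p under 0.05 limma gave 2 of the 7, GIS and bHLH115, against 35.2% of all features. No tested member was at least 2-fold higher in both lines (9.77% of all features) or at least 2-fold lower in both (1.44%). The 7 changes ran from -0.62 to 0.55 on the log2 scale, 4 above 0 and 3 below, with a median of 0.14, beside a median of -0.04 over all features tested. The median size of change regardless of sign was 0.20 for the members and 0.35 for all features.

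**Figure D1:**
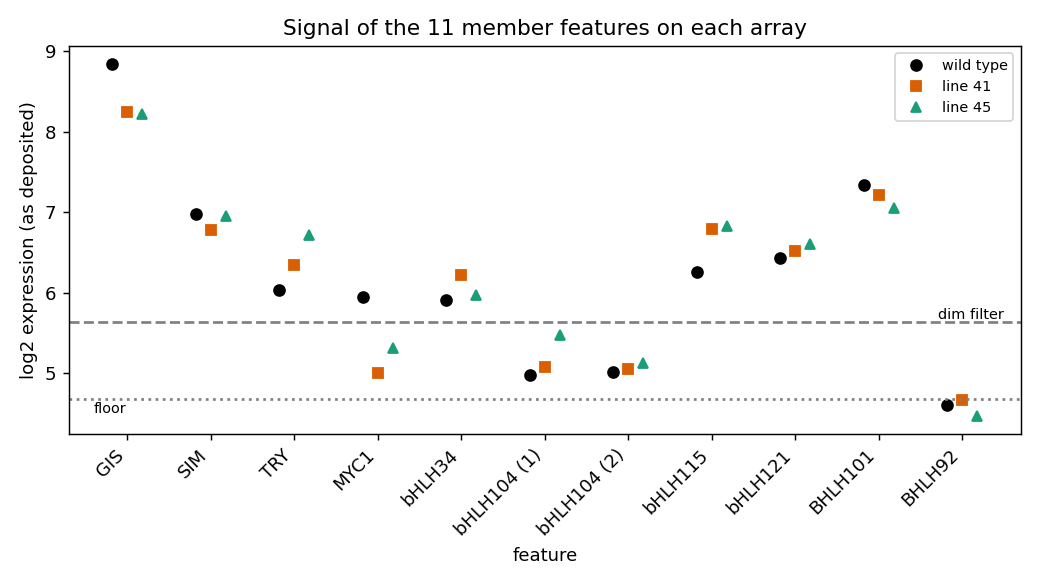
Deposited log2 expression (vertical axis) of the 11 member features on the wild-type array (circles), line 41 (squares) and line 45 (triangles), with the dim filter at 5.64 (dashed) and the floor at 4.68 (dotted). GIS and MYC1 lie lower and TRY and bHLH115 higher on both line arrays than on the wild-type array, both features of bHLH104 lie under the dim filter, and BHLH92 lies under the floor on all 3 arrays.

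Among the promoters of trichome formation, GIS (AT3G58070) encodes a C2H2 zinc finger protein. Its log2 level was 8.85 in wild type against 8.25 for line 41 and 8.22 for line 45. Both line arrays lay below wild type and differed from each other by 0.03. The wild-type value exceeded 97.0% of all features on its array, against 91.0% in line 41 and 91.2% in line 45. The log2 change was -0.62 ± 0.23 (SE, 2 lines against 1 wild-type array), which corresponds to a 1.53-fold lower level, with a 95% interval from -1.14 to -0.09. The adjusted p was 0.0924 by limma, so GIS did not pass over all features. The result depended on the scaling: after quantile normalization the change was -1.06 with an adjusted p of 0.00497, and with the signal-dependent trend taken out it was -0.77 with an adjusted p of 0.0394. A changed share of cell types, trichomes included, and a changed RNA level per cell cannot be told apart in whole leaves, here or for the other genes.

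MYC1 (AT4G00480), the bHLH gene of the trichome complex in this set, had a level of 5.95 in wild type against 5.0 for line 41 and 5.31 for line 45. Wild type lay above the dim filter and both lines lay below it. Its mean of 5.42 fell short of the filter, so it was not tested in the comparison over all features. As measured, line 41 lay 0.95 and line 45 0.64 below wild type on the log2 scale. With the lines raised to the dim filter's level, the level in the lines was 1.24-fold lower. That value is no bound, as the filter is a percentile of feature means and the wild-type value rests on a lone array. When no dim filter was applied, limma gave a change of -0.79 ± 0.20 (SE) with an adjusted p of 0.180, in a fit in which no feature of the array was called.

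TRY (AT5G53200), the single-repeat inhibitor of trichome fate, stood at 6.03 in wild type against 6.34 for line 41 and 6.72 for line 45. Both lines lay above wild type, and line 45 lay 0.38 above line 41. The log2 change was 0.51 ± 0.24, with a 95% interval from -0.04 to 1.05 and an adjusted p of 0.170 by limma. Of the 7 tested members TRY had the greatest gap between the lines. The change ran from 0.31 to 0.70 over the 12 alternatives tried, and these ends are the values of each line alone. Alternatives of dim filter, floor, variance model and gene summary could not move the change, which stayed at 0.51. TRY passed under none of the 10 alternatives that allow a test (limma adjusted p from 0.0852 to 0.352).

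SIM (AT5G04470), which promotes endoreduplication in trichomes, stood at 6.98 in wild type against 6.78 for line 41 and 6.96 for line 45. The line 45 value lay within 0.02 of wild type. The log2 change was -0.11 ± 0.22, with a 95% interval from -0.62 to 0.40 and an adjusted p of 0.773 by limma.

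**Figure D2:**
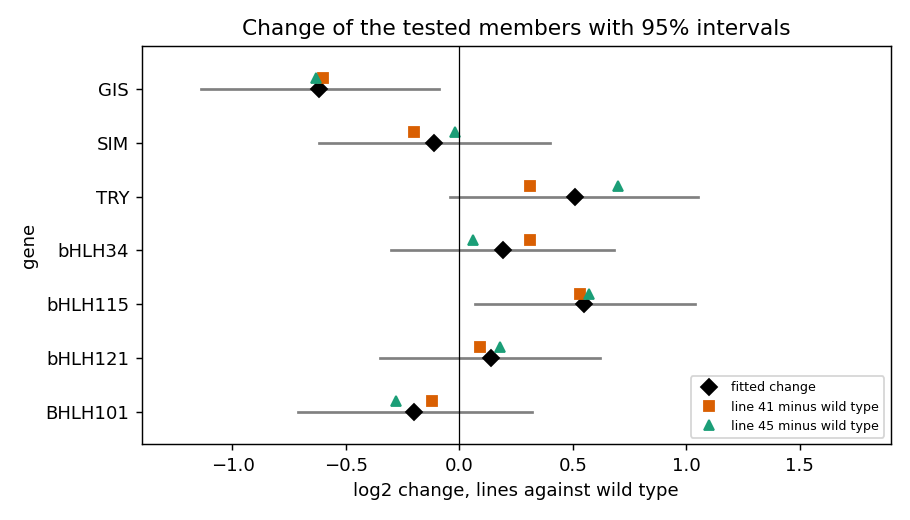
Log2 change of the lines against wild type (horizontal axis) for the 7 tested members, with the fitted change (diamonds), its 95% interval (lines) and each line minus wild type (squares for line 41, triangles for line 45). The intervals of GIS (-1.14 to -0.09) and bHLH115 (0.07 to 1.04) lie on one side of 0, and those of the other 5 genes include 0; the intervals are not adjusted for the number of features.

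Lists of trichome activators, repressors and growth genes name 44 genes, of which 8 were paired with a feature, 4 of them the members above. The other 4 were all tested, and 0 were called higher and 0 lower, where 21.9% of all features were called. With so few genes the count says little about the lists. Of the 7 tested genes of these lists, 2 had an unadjusted p under 0.05 by limma, GIS and AN, against 35.2% of all features. AN (AT1G01510), which shapes leaf cells and trichome branches, stood at 5.53 in wild type against 5.94 for line 41 and 6.26 for line 45. Its log2 change was 0.57 ± 0.22 with an adjusted p of 0.102 by limma, and it passed under 3 of 9 alternatives with a test (adjusted p from 0.0397 to 0.285). TBR, which acts in the cellulose wall of trichomes, stood at -0.44 ± 0.22. BRK1 and SRA1, parts of the actin-regulating WAVE complex that gives trichomes their shape, stood at -0.25 and 0.31. In a list drawn up as possible targets and partners of the MYB23 complex that are not members, 7 of 37 genes were paired with a feature. Whether MYB23 acts on the listed genes was not tested. Of these, 6 were tested, AN and TBR among them. None was called, again beside 21.9% of all features and too few genes to read as a result about the list. DFR (log2 change -0.56), UGT79B1 (-0.48) and 5MAT (-0.44) lay below wild type in both lines, as did TBR. UGT75C1 (-0.09) lay below it in line 41 only, and AN lay above it in both.

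Of the 4 tested bHLH genes, all of the iron response, 0 passed, where 21.9% of all features were called. With so few genes that count says little about the family. bHLH115 (AT1G51070), an activator of the iron deficiency response, stood at 6.26 in wild type against 6.79 for line 41 and 6.83 for line 45. Both lines lay above wild type by similar amounts, 0.53 and 0.57. The log2 change was 0.55 ± 0.21, which is a 1.47-fold higher level, with an adjusted p of 0.102 by limma. It did not pass under any of the 10 alternatives with a test, where the adjusted p ran from 0.059 to 0.182.

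bHLH34 (AT3G23210), of the same subgroup, stood at 5.91 in wild type against 6.22 for line 41 and 5.97 for line 45. Line 45 was close to wild type and line 41 lay 0.31 above it. The log2 change was 0.19 ± 0.21, with a 95% interval from -0.30 to 0.68 and an adjusted p of 0.577 by limma. bHLH104 (AT4G14410), also of this subgroup, was measured by 2 features, both under the dim filter on all 3 arrays. The first stood at 4.98 in wild type against 5.08 for line 41 and 5.47 for line 45, and the second at 5.02, 5.05 and 5.13. Each line lay above wild type on both features, by 0.11 and 0.50 on the first and by 0.02 and 0.11 on the second, and with levels this close to the floor of 4.68 no test was made.

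ILR3 (AT5G54680), the fourth protein of this subgroup, also known as bHLH105, is listed under a symbol without a bHLH number and so is not among the 10 genes. It was looked at after the values of the others were seen. Its level was 5.88 in wild type against 6.98 for line 41 and 6.86 for line 45, so both lines lay well above wild type. ILR3 rose 2.05-fold (log2 change 1.04 ± 0.21, 95% interval 0.55 to 1.53, adjusted p = 0.0116 by limma), and it passed under 9 of 10 alternatives with a test, the exception being the fit with no dim filter (adjusted p = 0.128). As 21.9% of all features were called, a call in 1 of the 3 tested genes of the subgroup is not a result about the subgroup. Whether ILR3 differed from bHLH34 or bHLH115 in its change was not tested.

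bHLH121 (AT3G19860), the partner of these proteins, stood at 6.43 in wild type against 6.52 for line 41 and 6.61 for line 45. The 3 values lay within 0.18 of each other, and the log2 change was 0.14 ± 0.21 (95% interval -0.35 to 0.62, adjusted p = 0.691 by limma). BHLH101 (AT5G04150), a gene that these proteins activate under iron shortage, stood at 7.34 in wild type against 7.22 for line 41 and 7.06 for line 45. Both lines lay slightly below wild type, and the log2 change was -0.20 ± 0.22 (95% interval -0.71 to 0.32, adjusted p = 0.582 by limma). PYE, a bHLH repressor of iron genes that was also looked at after the other values were seen, stood at 7.79 in wild type against 7.42 for line 41 and 7.80 for line 45, and its log2 change was -0.18 (limma adjusted p = 0.666). BHLH92 (AT5G43650), a bHLH gene known from salt and osmotic stress, read 4.61, 4.67 and 4.47, all at or under the floor, so its values have no order.

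**Figure D3:**
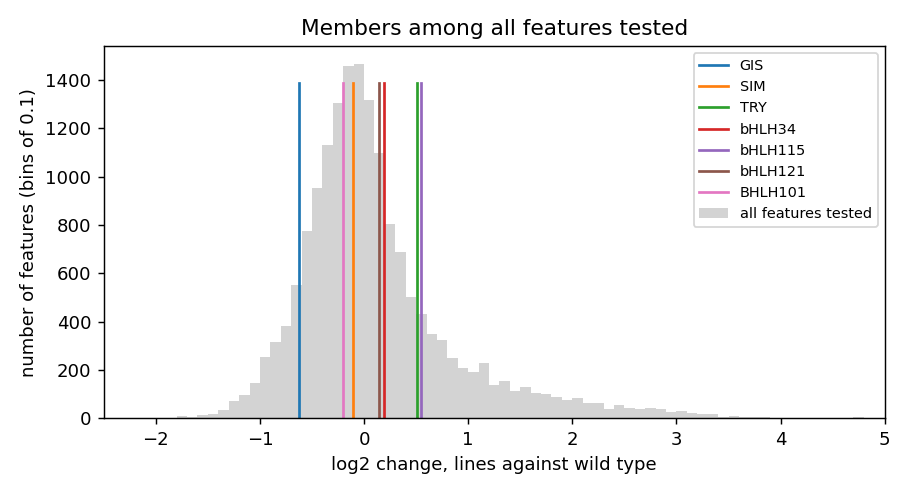
Number of features (vertical axis, in bins of 0.1) by log2 change of the lines against wild type (horizontal axis) for all 16905 features tested, with a coloured line of fixed height at the change of each of the 7 tested members. The members lie between -0.62 and 0.55, inside the bulk of the distribution, whose right tail reaches 4.77.

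Among all features tested, 71.6% had a smaller change than GIS regardless of sign, 67.2% a smaller one than bHLH115 and 63.8% a smaller one than TRY. For BHLH101, bHLH34, bHLH121 and SIM the share was 31.2%, 30.0%, 22.4% and 18%. The 4 tested bHLH genes had a median change of 0.16 and the 3 tested trichome genes one of -0.11. Line 41 and line 45 were at least 2-fold apart in none of the 7 members, against 0.491% of all features, and the median gap between the lines was 0.16 for the members and 0.18 for all features. Each line had 1 array, so differences between the lines carry no test.

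Genes of these families listed under other symbols were found by family words in their RefSeq symbols or synonyms, a search made after the data were seen. It gave 6 genes, all tested, of which 1 was called higher (ILR3, the call given above) and 0 lower, a share near the 14.6% of all features called higher. The other bHLH genes in it were AT1G72210 (bHLH96), with a log2 change of 0.06, and AT1G22490 (bHLH94), with one of -0.01. For AT1G72210 the lines lay on either side of wild type, at -0.22 for line 41 and 0.34 for line 45. The MYB-related genes MYBC1, known from freezing tolerance, and AT5G47390 (KUA1 or MYBH), known from leaf cell expansion, stood at 0.10 and 0.12. The lines also lay on either side of wild type for AT5G47390, at 0.29 for line 41 and -0.05 for line 45. The nodulin homeobox gene AT4G03090 (NDX) stood at -0.05, with both lines within 0.05 of wild type.

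Of the lists of related factors, those for epidermal and for homeobox genes held a few genes with a feature. The stomatal bHLH genes SPCH, MUTE and FAMA, which act in turn along the guard cell lineage, were the 3 of 20 epidermis genes paired with a feature. By limma 0 of them passed, against 21.9% of all features, and 0 had an unadjusted p under 0.05, against 35.2%. With so few genes these counts say little about the list. SPCH stood at 6.72 in wild type against 6.50 for line 41 and 6.95 for line 45, with the lines on either side of wild type. MUTE had a log2 change of -0.09 and FAMA one of -0.46 ± 0.22 (adjusted p = 0.173). HAT2 (AT5G47370), an auxin-induced homeobox gene of the HD-ZIP II class, was the 1 gene of 12 in its list with a feature, at 6.33 in wild type against 7.74 for line 41 and 7.01 for line 45. It rose 2.06-fold (log2 change 1.05 ± 0.31, adjusted p = 0.0491 by limma), but it lay 1.41 above wild type in line 41 and 0.68 in line 45, and it missed the threshold under 3 of 10 alternatives with a test, with adjusted p from 0.00913 to 0.283. PHV, of the HD-ZIP III class, lay under the dim filter on each array. No gene of the HD-ZIP IV list, which holds GL2, the homeobox target of the trichome complex, was paired with a feature.

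**Figure D4:**
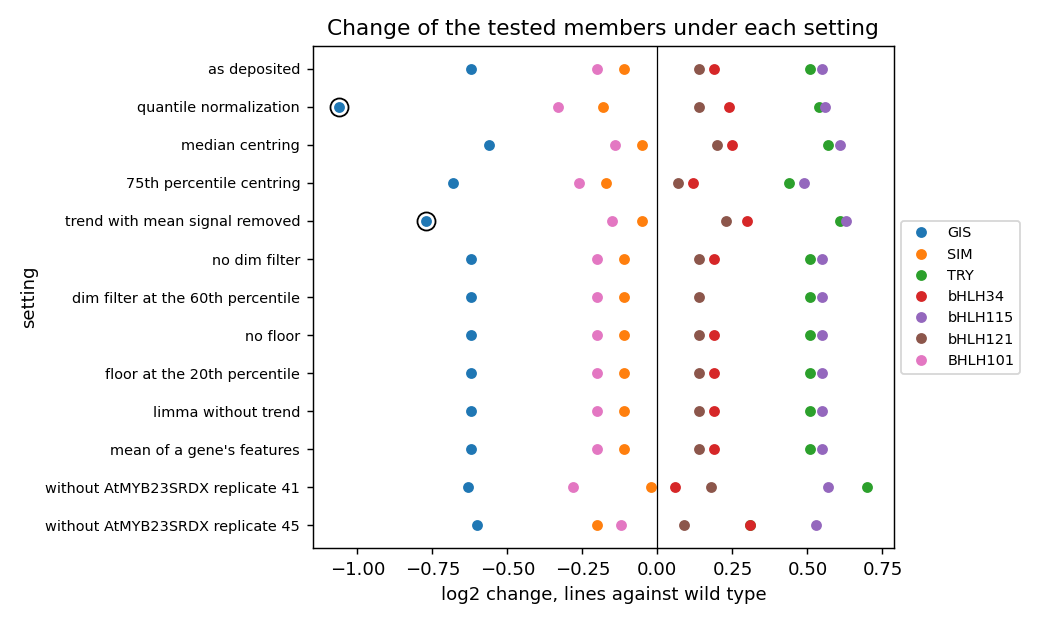
Log2 change of the lines against wild type (horizontal axis) for the 7 tested members under the deposited values and 12 alternatives (vertical axis), with a ring where limma's adjusted p was under 0.05. GIS has the only rings, after quantile normalization (-1.06) and with the signal-dependent trend taken out (-0.77). Each gene stays on its side of 0, but alternatives of dim filter, floor, variance model and gene summary cannot move its change.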

How the data were processed

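The authors deposited 1 value per feature and array for 3 arrays, read here as log2 expression from their range of 4.04 to 14.8. The sources used here do not give the log base, platform processing or normalization, and another base would change the folds. Values were kept as deposited, raised to a floor at their percentile 5 (4.68). The dim filter at percentile 40 of feature means (5.64) left 17271 features. The probe table named 17579 features by 1 gene and left 11206 unnamed, and RefSeq (TAIR10.1) updated the symbols. The brightest feature stood for a gene, which left 16905.

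Both lines together were set against the wild-type array in limma 3.58.1 under R 4.3.3 (lmFit, eBayes with trend, two-sided, Benjamini-Hochberg over all features), with 1 residual and 6.76 prior degrees of freedom. The number of arrays limits the precision. The fit was tested on simulated data. Members, lists and tests were chosen with earlier results of these data known. Named were all members, whatever their values, genes of the trichome, epidermis, homeobox and MYB23 complex lists, and cell type markers. Others are marked as chosen after their values were seen. Alternatives covered scaling, trend, dim filter, floor, variance model, gene summary and leaving out a line.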

Additional observations from a re-analysis of the deposited data

How the results depend on the processing

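Alternatives of dim filter, floor, variance model and gene summary could not move a tested member's own change, and all 12 alternatives use the lone wild-type array. Under the scalings and with a line left out, no tested member changed direction. Over the 12 alternatives GIS was the only tested member to cross the threshold. It was called lower after quantile normalization and with the signal-dependent trend taken out, against 0 members called in the values as deposited. After quantile normalization 1 member was at least 2-fold lower in both lines. The median change over the tested members, 0.14 as deposited, was 0.20 after median centring, 0.07 after centring on the 75th percentile, 0.23 after removal of the trend, 0.07 with no dim filter (10 members) and 0.01 with the filter at percentile 60 (6 members, without bHLH34). It ran from 0.06 to 0.09 when either line was left out. Scalings moved the median of all features by -0.06 to 0.06. Of all features limma called 21.9% as deposited, 31.1% after quantile normalization (2602 higher and 2660 lower, against 2468 and 1229 as deposited) and 0% with no dim filter, where 7167 had an unadjusted p under 0.05. The cause of these shifts was not tested. Leaving out the wild-type array leaves no comparison, and leaving out a line leaves no residual degrees of freedom and so no test. No paired analysis was possible because wild type had 1 array and the labels give no pairing.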

Other observations

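A list of 59 bHLH genes, looked up by gene name after the data were seen, had 16 paired with a feature and 11 tested. The tested ones include SPCH, MUTE, FAMA, PYE and ILR3, all described above. Of the 11, 1 was called higher (ILR3, the same call as above) and 1 lower, near the 14.6% and 7.27% of all features called in each direction. The lower one was AMS (AT2G16910), a bHLH gene of the anther tapetum, which stood at 6.59 in wild type against 5.51 for line 41 and 5.84 for line 45. AMS fell by 0.91 on the log2 scale (SE 0.22, adjusted p = 0.0215 by limma, lower in 2 of 2 lines) and passed under 8 of 9 alternatives with a test, missing with no dim filter (adjusted p = 0.187). Both line values lay near the dim filter's level of 5.64. MYC4, a bHLH factor of jasmonate signalling and glucosinolate synthesis, stood at 7.22 in wild type against 6.73 for line 41 and 6.07 for line 45 and did not pass (log2 change -0.82 ± 0.29, adjusted p = 0.0867), except after quantile normalization (adjusted p = 0.0309). PIF7, a phytochrome-interacting factor, stood at 5.98, 6.98 and 6.27 and did not pass (adjusted p = 0.173). BIM1, a bHLH factor of brassinosteroid signalling, had a log2 change of 0.47 (adjusted p = 0.179).

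Of 44 genes of iron regulation and transport, also listed after the data were seen, 5 were paired with a feature and tested. These include PYE and ILR3, described above, and only ILR3 passed, a share near the 21.9% of all features called. F6'H1 (AT3G13610), which makes the coumarins that plants release under iron shortage, stood at 9.13 in wild type against 8.57 for line 41 and 8.25 for line 45 (log2 change -0.72 ± 0.25, adjusted p = 0.0771 by limma). The metal transporter gene ZIP9 stood at -0.51 (adjusted p = 0.171) and the chloroplast carrier gene MFL1 at -0.12 (adjusted p = 0.778).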
